A study of Caenorhabditis elegans with 8 samples.

Results

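Long intergenic non-coding RNAs (lincRNAs) of Caenorhabditis elegans were examined in whole young adult worms. The members were the 161 rows of the deposited expression table named linc followed by a number, among 41560 rows in all. Worms were either daf-16 mutants carrying mgDf50, a deletion allele of the gene for the FOXO transcription factor DAF-16, or wild type of strain N2. Each genotype was raised on Escherichia coli BW25113 with its hns gene deleted, called hns here, or on unmodified BW25113. The 4 groups were daf-16 fed hns, daf-16 fed BW25113, wild type fed hns and wild type fed BW25113, with 2 libraries each. The labels leave unsaid if replicate libraries stem from independent worm cultures, and their spread, on which all p-values rest, could be technical. Each library is from whole animals, so fewer cells of a type and less RNA per cell cannot be told apart. The series compares the worm's response to hns-deficient bacteria with and without DAF-16.

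LincRNAs are transcripts from the space between protein-coding genes that hold no long reading frame. In C. elegans most were found by assembling RNA sequencing reads, and they carry linc numbers because the role of most is not known. Such RNAs are commonly made at low levels and often in few cells or at few stages, which makes them hard to count in RNA from a whole worm. Library preparation used the Lexogen SENSE mRNA kit, which selects polyadenylated RNA, so a lincRNA without a poly(A) tail would be under-represented.

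Levels are given as FPKM, fragment numbers scaled for transcript length and for library size, and each library's FPKM summed to between 2128460 and 2508480. The targeted gene followed the labels, with daf-16 at 15.8 to 19.2 FPKM in the 4 mutant libraries and 69.9 to 77.4 FPKM in the 4 wild-type libraries. Replicate 1 of wild type fed hns had the most rows at 1 FPKM or more (14099, against 13191 to 13931 in the other libraries). Marker lists of whole-worm tissues were read beside the lincRNAs. Summed FPKM of 10 muscle markers lay between 4578 and 5336 in daf-16 and between 3655 and 4184 in wild type. Summed FPKM of 10 cuticle and epidermis markers was 302 and 247 in daf-16 fed hns, 228 and 186 in daf-16 fed BW25113, 354 and 283 in wild type fed hns and 165 and 130 in wild type fed BW25113. The part of these shifts in the lincRNA values below was not tested. No list had a marker at 0 in every library.

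Most lincRNAs were detected at least once, but few reached an appreciable level. Of the 161, 88.2% were above 0 in at least 1 library, 69 were above 0 in all 8, and 19 were listed at 0 throughout. In a single library 97 to 110 were above 0 and 46 to 54 stood at 1 FPKM or more. The mean over the 8 libraries was at least 10 FPKM for 11 lincRNAs, between 1 and 10 FPKM for 42 and under 1 FPKM for 108. The filter used for testing, at least 1 FPKM in at least 2 libraries, kept 61 (37.9%), against 12391 of 17795 rows of protein-coding genes (69.6%) and 27 of 55 rows of the antisense RNAs named anr (49.1%). Of the 100 lincRNAs not tested, 81 were above 0 somewhere.

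All 161 lincRNAs were found by name in a later reference annotation, that of Ensembl for WBcel235, which classes 160 of them as lincRNA. Their longest transcripts there ranged from 101 to 4183 nt with a median of 449 nt, and 22 were shorter than 200 nt. A single exon was annotated for 53, a pair of exons for 81 and 3 or more for 27, with at most 6. Although named intergenic, 37 overlapped a protein-coding gene in this annotation, 21 of them on the same strand. Among these, linc-2 lies within the span of pcf-11, which encodes an mRNA 3′-end processing factor, and linc-7 lies opposite C09G1.4. The sources used here do not say whether fragments were assigned by strand, so reads of overlapping genes may be shared. The pcf-11 row stood at 36.3 to 46.1 FPKM and the C09G1.4 row at 1.40 to 2.89 FPKM.

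For short transcripts FPKM was a poor guide to how much was seen. The value of about 1 fragment was read from other rows of like length that were above 0 in exactly 1 library. It came to 53.05 FPKM at 114 nt, 15.5 FPKM at 131 nt, 4.74 FPKM at 156 nt, 1.38 FPKM at 200 nt, 0.371 FPKM at 300 nt and 0.0484 FPKM at 1000 nt. So the same FPKM stood for very different amounts of evidence. For the 42 lincRNAs under 300 nt, 85 of 103 values between 0.5 and 5.5 implied fragments (82.5%) lay within 0.15 of a whole number. An estimate could be made for 128 of the 161 lincRNAs, the others being longer transcripts with too few such rows close to them in length. Of those 128, 27 averaged at least 10 fragments a library and 74 averaged under 3.

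**Figure D1:**
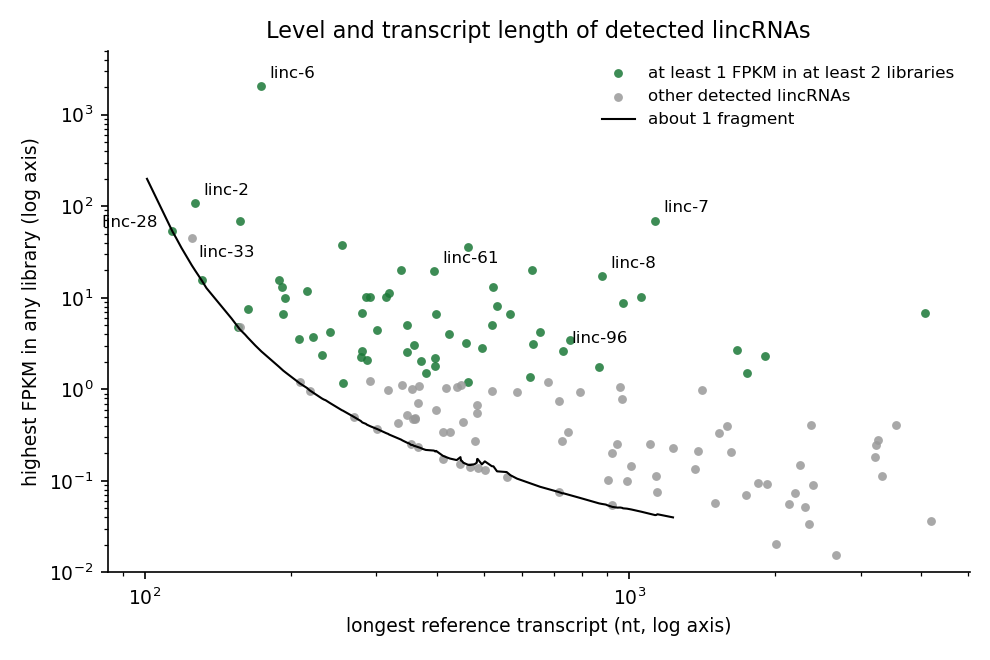
Highest FPKM in any of the 8 libraries (log axis) against the longest reference transcript in nt (log axis) for detected lincRNAs, with the value of about 1 fragment as a line. Points on the line at the short end, such as linc-28, rest on about 1 fragment in the library plotted, while linc-7 lies far above it; linc-51, with a highest value under 0.01 FPKM, is not drawn.

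The lincRNA with the highest FPKM was linc-6, a single-exon transcript of 174 nt, and in FPKM it differed most within a group. Its level was 642 and 676 FPKM in daf-16 fed hns, 2061 and 101 FPKM in daf-16 fed BW25113, 2045 and 1361 FPKM in wild type fed hns and 799 and 690 FPKM in wild type fed BW25113. The libraries of daf-16 fed BW25113 held both the highest and the lowest of the 8 values, so every other group lay inside that group's range. These levels correspond to about 39 to 795 fragments, and the cause of the spread was not tested. In the reference linc-6 overlaps a pseudogene and the non-coding gene F52D2.14, and fragments shared between them cannot be assigned with certainty. Its effect of food, as the mean over both genotypes, was 0.85 ± 0.87 on the log2 scale (SE; limma adjusted p = 0.573), and its effect of genotype was -1.02 ± 0.87 (limma adjusted p = 0.687). Without replicate 1 of daf-16 fed BW25113 these became 1.93 and -2.103 (limma adjusted p = 0.0123 and 0.0208), with replicate 2, at 101 FPKM, then standing alone for its group and assumed to vary as the other groups do. Without replicate 2 they became -0.24 and 0.07 (limma adjusted p = 0.526 and 0.889), so the single library kept decided the sign.

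Because of linc-6, the summed level of all lincRNAs said little about the others. The sum was 1157 and 1152 FPKM in daf-16 fed hns, 2625 and 620 FPKM in daf-16 fed BW25113, 2607 and 1981 FPKM in wild type fed hns and 1210 and 1156 FPKM in wild type fed BW25113. It made up between 0.0247% and 0.122% of a library's FPKM, and linc-6 held 16.3% to 78.5% of it. Without linc-6 the sums were 515 and 476 FPKM in daf-16 fed hns, 564 and 519 FPKM in daf-16 fed BW25113, 562 and 620 FPKM in wild type fed hns and 411 and 467 FPKM in wild type fed BW25113. Wild type fed BW25113 was then the lowest group and daf-16 fed hns the next, while the other 2 groups overlapped. These sums still include short lincRNAs with few fragments. Among them are linc-2, at most about 5.49 fragments a library, and linc-28, at 54.03 and 52.59 FPKM only in wild type fed hns. Restricted to lincRNAs of 300 nt or more, the 8 sums lay between 240 and 289 FPKM. There wild type fed BW25113, at 240.3 and 245.3 FPKM, overlapped wild type fed hns, at 244.8 and 262.3 FPKM.

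After linc-6, linc-2 and linc-1 ranked high on FPKM but lower by estimated fragments. The 127 nt linc-2 stood at 109 and 57.4 FPKM in daf-16 fed hns, 99.2 and 99.9 FPKM in daf-16 fed BW25113, 102 and 98.9 FPKM in wild type fed hns and 21.7 and 56.3 FPKM in wild type fed BW25113. That is about 1.10 to 5.49 fragments a library, and linc-2 ranked second by FPKM but 46th by estimated fragments. The 157 nt linc-1, whose nearest coding gene is the ribosomal protein gene rpl-31, ranged from 26.7 to 68.5 FPKM, or about 5.90 to 15.1 fragments, which put it 25th.

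The longer linc-7 (1130 nt), linc-9 (465 nt), linc-29 (629 nt) and linc-8 (878 nt) had, with linc-6, the most fragments among the 128 lincRNAs with an estimate. By estimated fragments linc-7 came first, with about 991 to 1644 a library. Its FPKM was 43.0 and 66.1 in daf-16 fed hns, 52.5 and 64.4 in daf-16 fed BW25113, 41.9 and 69.5 in wild type fed hns and 48.1 and 67.3 in wild type fed BW25113. In each of the 4 groups replicate 1 was the lower library, at 41.9 to 52.5 FPKM, and replicate 2 lay between 64.4 and 69.5 FPKM, so the groups overlapped. The level of linc-9 lay between 30.2 and 36.3 FPKM in all 8 libraries and that of linc-29 between 13.9 and 19.9 FPKM. The 255 nt linc-14 lay between 26.97 and 38.15 FPKM and the 338 nt linc-15 between 9.58 and 20.3 FPKM. Neither the 2 foods nor the 2 genotypes separated any of these 5 over all 8 libraries. For linc-7, linc-9, linc-14, linc-15 and linc-29 the mean effects of food and of genotype all lay between -0.25 and 0.19 on the log2 scale, with limma adjusted p of 0.412 to 0.997.

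**Figure D2:**
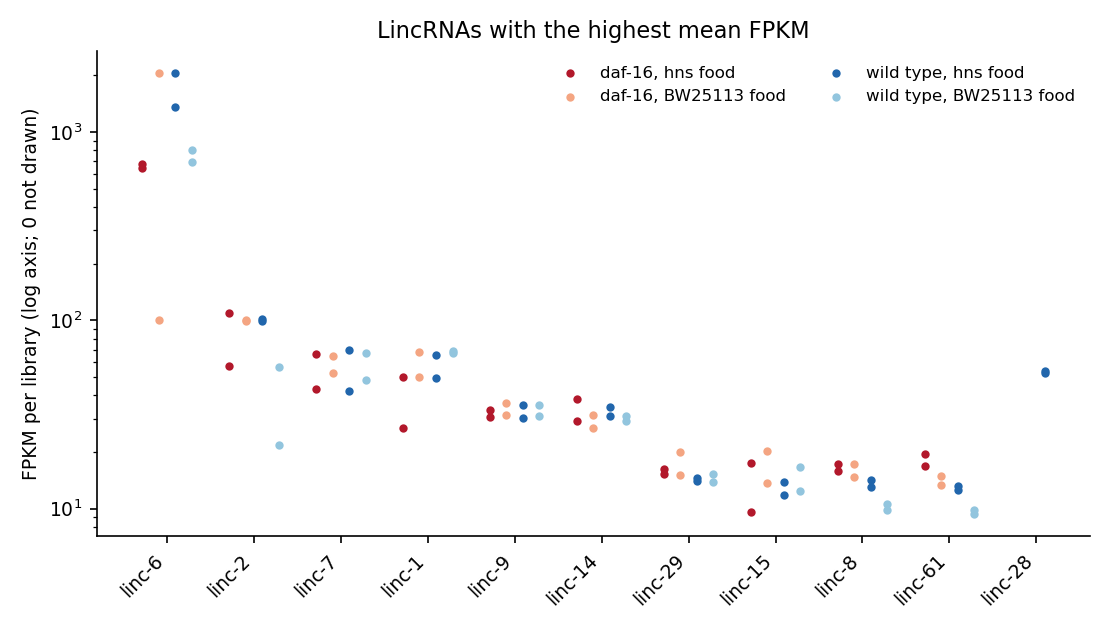
FPKM in each library (log axis) for the 11 lincRNAs with the highest mean FPKM, with 2 points for each group of genotype and food. The libraries of daf-16 fed BW25113 are farthest apart for linc-6, at 2061 and 101 FPKM, and linc-28 is drawn only in wild type fed hns, being listed at 0 elsewhere.

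Food and genotype were tested over all 14564 genes that passed the filter, with limma on log2(FPKM + 1), so fold changes of genes with low FPKM are understated. The threshold was an adjusted p of 0.05. In wild type, hns food moved 127 genes (0.872% of those tested), of which 1 was a lincRNA, linc-28. In daf-16, 59 genes passed (0.405%) and 0 of 61 lincRNAs did by limma, although 3 lincRNAs (4.92%) had an unadjusted p under 0.05, against 6.50% of all genes. As the mean over both genotypes, 256 genes passed for food (1.76%), and linc-28 was again the 1 lincRNA among them. None of the 61 tested lincRNAs had its 4 hns libraries entirely above or entirely below its 4 BW25113 libraries. Of all tested genes, 6.33% showed this pattern in the higher direction and 4.19% in the lower. LincRNAs that did not pass the filter were left out of this count, and some of them, such as linc-47, showed the pattern. The 61 tested lincRNAs had a median food effect of 0.10 in wild type (37 above 0) and 0.06 in daf-16 (34 above 0), beside medians of -0.0034 and -0.0052 over all genes. Over the 55 not at 0 in a whole group the lincRNA medians were 0.08 and 0.09. All these medians cover only lincRNAs that passed the filter.

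The 1 lincRNA past the threshold, linc-28, was listed at 0 in 6 libraries. It read 0 and 0 FPKM in daf-16 fed hns, 0 and 0 FPKM in daf-16 fed BW25113, 54.03 and 52.59 FPKM in wild type fed hns and 0 and 0 FPKM in wild type fed BW25113. Wild type fed hns stood above the other 3 groups, which were all at 0, and the limma adjusted p was 1.73e-05 for food in wild type and 9.43e-05 for the mean food effect. It passed the filter only through the group where it was positive, so these p-values are no support for a difference. Its longest transcript is 114 nt, where the value of about 1 fragment was 53.05 FPKM (quartiles 51.9 and 54.9). The values thus matched about 1.02 and 0.991 fragments. Among the 26 other rows of exactly 114 nt, the only positive value was 47.8 FPKM. No fold is given, since an exact 0 can be a failed estimate. With either library of wild type fed hns left out, linc-28 no longer met the filter, and 0 lincRNAs passed for food in wild type.

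Next in order of p in wild type stood linc-104, a 287 nt transcript opposite eri-6, a gene of the small-RNA pathway. It read 0.389 and 0 FPKM in daf-16 fed hns, 0.423 and 0.814 FPKM in daf-16 fed BW25113, 2.104 and 1.685 FPKM in wild type fed hns and 0 and 0 FPKM in wild type fed BW25113. Wild type fed hns was thus higher than every other group, by what amounts to about 5.11 and 4.09 fragments against at most 1.97 elsewhere. It too reached 1 FPKM only in wild type fed hns, and so entered the test only through the group where it was high. With that limit, food in wild type gave a limma adjusted p of 0.0574, which lay past the threshold under some alternatives. The eri-6 row itself lay between 28.5 and 38.9 FPKM and did not separate the foods (log2 fold change -0.04 ± 0.12, limma adjusted p = 0.863).

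The other lincRNAs at 0 in a whole group, with a mean of at least 1 FPKM in another, showed no shared direction. The 125 nt linc-33 was positive only in replicate 2 of wild type fed hns, at 45.2 FPKM or about 2.00 fragments. The 131 nt linc-32 read 15.5 FPKM in replicate 2 of daf-16 fed BW25113 and 15.4 FPKM in replicate 2 of wild type fed hns, about 1 fragment each, and 0 elsewhere. The 156 nt linc-23 read between 4.45 and 4.85 FPKM in 4 libraries from 3 groups, about 1 fragment each. It read 0 in both libraries of daf-16 fed hns. The 163 nt linc-71 was positive in 3 libraries, the 208 nt linc-18 in 4 and the 157 nt linc-26 in 1, with at most 2.05, 2.96 and 1.06 fragments. In all, 62 lincRNAs were at 0 in at least 1 whole group, 19 of them everywhere, and 6 of the 62 passed the filter.

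**Figure D3:**
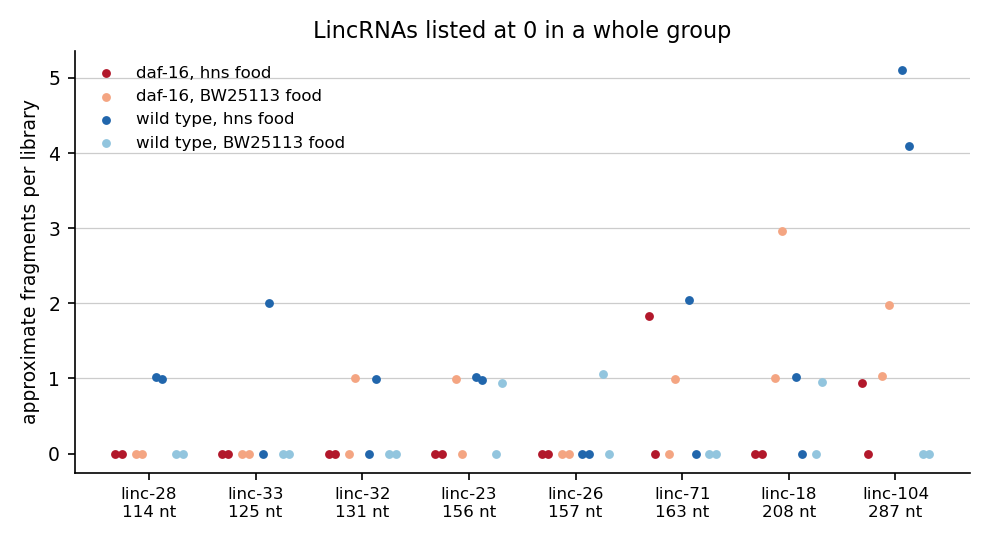
Approximate fragments per library, as FPKM divided by the value of about 1 fragment, for the 8 lincRNAs at 0 in a whole group with at least 1 FPKM on average in another, ordered by transcript length. Points fall close to whole numbers, linc-28 at about 1.02 and 0.991 in wild type fed hns and linc-104 at up to 5.11.

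Genotype separated 3 of the 61 tested lincRNAs across all 8 libraries, 2 higher in daf-16 and 1 lower. Their adjusted p-values missed the threshold. LincRNAs that did not pass the filter were not counted, and some of them separated too, such as linc-161 (higher in daf-16) and linc-85 (lower). On BW25113 food 38 genes passed for daf-16 against wild type (0.261%) and 0 lincRNAs did by limma. Unadjusted, 9 of 61 (14.8%) were under 0.05, against 9.12% of all genes. The 9 include linc-83, which entered the test only through daf-16 fed BW25113. On hns food 34 genes passed (0.233%), and as the mean over both foods 121 genes passed (0.831%). In both of these linc-28 was the 1 lincRNA called, lower in daf-16, on the values and with the limit given above (limma adjusted p = 1.98e-05 and 0.000175). Libraries without overlap were seen for 2 of 61 lincRNAs in the higher direction (3.28%) and 1 in the lower (1.64%), close to the 4.22% and 2.15% of all genes. The median genotype effect of the 61 tested lincRNAs was 0.20 on BW25113 food (43 above 0) and 0.02 on hns food (32 above 0), beside 0.0080 and -0.0046 over all genes. Over the 55 not at 0 in a whole group the medians were 0.15 and 0.05.

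Of these, linc-61, a 395 nt transcript whose nearest coding gene is the histone H4 gene his-1, followed both factors. It stood at 16.95 and 19.56 FPKM in daf-16 fed hns, 14.9 and 13.4 FPKM in daf-16 fed BW25113, 12.6 and 13.1 FPKM in wild type fed hns and 9.33 and 9.79 FPKM in wild type fed BW25113. Every daf-16 library lay above every wild-type library, and within each genotype both hns libraries lay above both BW25113 libraries. The difference of daf-16 from wild type was 0.52 ± 0.11 on BW25113 food and 0.47 ± 0.11 on hns food (log2, SE; limma adjusted p = 0.187 and 0.287). As the mean over both foods it was 0.49 ± 0.08 (limma adjusted p = 0.0523), and the mean food effect was 0.37 ± 0.08 (limma adjusted p = 0.0737). The genotype effect passed in 6 of 21 alternatives, with adjusted p from 0.0387 to 0.181 and an effect of 0.38 to 0.54. At the length of its longest transcript, the level corresponds to about 43.5 to 91.2 fragments a library. The his-1 row lay between 0.979 and 2.05 FPKM with a genotype effect of -0.06 ± 0.22 (limma adjusted p = 0.939). The muscle marker sum given above was likewise higher in all daf-16 libraries, and the cuticle marker sum was higher on hns food within each genotype; their part in the linc-61 and linc-8 values was not tested.

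The 5-exon linc-8 also lay higher in daf-16. It stood at 15.9 and 17.2 FPKM in daf-16 fed hns, 17.2 and 14.8 FPKM in daf-16 fed BW25113, 14.25 and 13.03 FPKM in wild type fed hns and 9.90 and 10.6 FPKM in wild type fed BW25113. The gap between genotypes was wide on BW25113 food (0.59 ± 0.11, limma adjusted p = 0.157) and narrower on hns food (0.26 ± 0.11, adjusted p = 0.641). The interaction of 0.33 ± 0.16 (limma adjusted p = 1.00) did not pass. As the mean over both foods the effect was 0.43 ± 0.08 (limma adjusted p = 0.0820). With about 177 to 308 fragments a library, linc-8 was among the better counted lincRNAs. In the reference it overlaps F59H5.5, whose row was at 0 throughout, and WBGene00195037, neither of them protein-coding.

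The 731 nt linc-96 was lower in daf-16. It read 1.77 and 1.32 FPKM in daf-16 fed hns, 1.41 and 1.02 FPKM in daf-16 fed BW25113, 2.55 and 2.16 FPKM in wild type fed hns and 2.62 and 2.22 FPKM in wild type fed BW25113. The genotypes did not overlap and the foods did, with a genotype effect of -0.52 ± 0.13 (limma adjusted p = 0.172) and about 13.9 to 35.9 fragments a library. Its nearest coding gene, the Rh-related ammonium transporter gene rhr-1, differed by 0.04 ± 0.05 (limma adjusted p = 0.817). In the reference linc-96 also overlaps F08F3.12, which is not protein-coding and whose row ranged from 0 to 20.4 FPKM. Fragments shared between them cannot be assigned with certainty.

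The largest genotype effect on BW25113 food among the 55 tested lincRNAs not at 0 in a whole group belonged to linc-83, which was chosen after its values were seen. This 424 nt transcript lies nearest the GATA factor gene elt-4. It read 1.04 and 0.582 FPKM in daf-16 fed hns, 4.03 and 2.81 FPKM in daf-16 fed BW25113, 0.344 and 0.441 FPKM in wild type fed hns and 0.598 and 0.170 FPKM in wild type fed BW25113. The 2 libraries of daf-16 fed BW25113 were above all others. At the length of the longest transcript they held about 22.7 and 15.8 fragments, against 0.959 to 5.87 elsewhere. The value of about 1 fragment at that length had quartiles of 0.173 and 0.423 FPKM. A transcript of 255 nt is also annotated, and at that length the estimates would be lower. Outside daf-16 fed BW25113, linc-83 reached 1 FPKM only in replicate 1 of daf-16 fed hns. So it entered the test only through the group where it was high, and its p-values are no support for a difference. The genotype effect was 1.68 ± 0.25 on BW25113 food (limma adjusted p = 0.0990) and 0.37 ± 0.25 on hns food (adjusted p = 0.789), and the interaction of 1.31 ± 0.36 had a limma adjusted p of 1.00. As the mean over both foods the effect of 1.02 ± 0.18 had a limma adjusted p of 0.0769, and it passed in 2 of 20 alternatives, with adjusted p from 0.0411 to 0.237. The elt-4 row showed no such pattern, at 7.68 to 13.8 FPKM with a genotype effect of 0.05 ± 0.22 (limma adjusted p = 0.954).

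**Figure D4:**
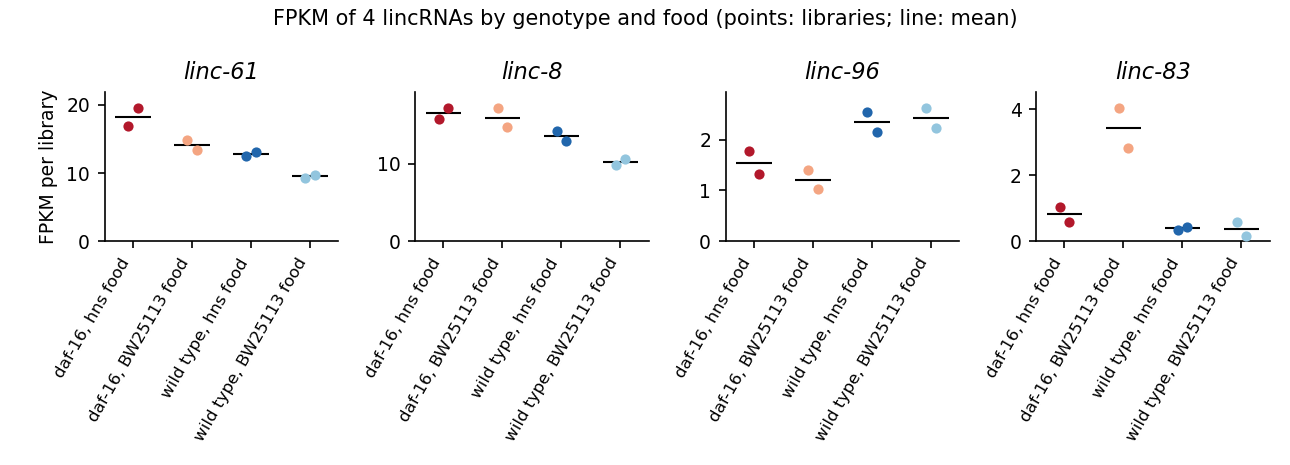
FPKM per library (points) and group mean (line) for linc-61, linc-8, linc-96 and linc-83 in daf-16 and wild type on each food, with 2 libraries a group. All daf-16 points lie above all wild-type points for linc-61 and linc-8 and below them for linc-96, and linc-83 is high in daf-16 fed BW25113, at 4.03 and 2.81 FPKM.

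Further lincRNAs chosen after their values were seen showed shifts that missed the threshold. The 970 nt linc-11 stood at 8.53 and 8.52 FPKM in daf-16 fed hns, 7.84 and 7.07 FPKM in daf-16 fed BW25113, 8.83 and 7.22 FPKM in wild type fed hns and 5.45 and 5.48 FPKM in wild type fed BW25113. Its wild-type libraries on BW25113 food were the lowest of the 8, and food in wild type gave 0.48 ± 0.13 (limma adjusted p = 0.160). The nearest coding gene, bath-10, was also lowest in wild type fed BW25113, at 3.63 and 5.29 FPKM against 6.94 to 9.98 FPKM in the other libraries. The 568 nt linc-16, which overlaps fbxa-3 and lies opposite fbxc-19, both F-box genes, stood at 5.33 and 6.67 FPKM in daf-16 fed hns, 4.49 and 5.06 FPKM in daf-16 fed BW25113, 4.02 and 4.62 FPKM in wild type fed hns and 2.54 and 3.42 FPKM in wild type fed BW25113. Its genotype effect was 0.47 ± 0.12 (limma adjusted p = 0.185). That of the fbxa-3 row was 0.37 ± 0.15 (limma adjusted p = 0.378) and that of the fbxc-19 row 0.07 ± 0.12 (adjusted p = 0.866). Whether these lincRNAs vary with their neighbours was not tested. The 281 nt linc-55 ranged from 0 to 2.63 FPKM and the 189 nt linc-35 from 0 to 15.7 FPKM. Their food effects were 0.71 and -1.46 (limma adjusted p = 0.203 and 0.219). They rest on few fragments, about 0 to 6.04 a library for linc-55 and 0 to 8.88 for linc-35.

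The interaction, the food effect in wild type minus that in daf-16, called 14 genes (0.0961%), and linc-28 was the 1 lincRNA among them, at a limma adjusted p of 0.000175 and with the same limit. All 14 were listed at 0 in a whole group. With genes listed at 0 in any library left out, a setting chosen after seeing the data, 0 genes and 0 lincRNAs passed for the interaction by limma. Of the 61 tested lincRNAs, 4 (6.56%) had an unadjusted p under 0.05, against 3.70% of all genes. These were linc-28, linc-104, linc-83 and linc-2. All but linc-2 entered the test only through the group where they were high, so the larger share is no support for an excess.

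Replicates of the tested lincRNAs differed more than those of all tested genes, which stood at higher levels. The median of the mean FPKM was 3.15 for these lincRNAs and 17.3 for all tested genes, and spread was not compared at matched levels. The residual SD within groups, on the log2(FPKM + 1) scale, had a median of 0.33 over the 61 tested lincRNAs and 0.13 over all tested genes. It was 0.50 for the 31 lincRNAs with under 10 fragments, 0.27 for the 18 with 10 to 100 and 0.14 for the 7 with 100 or more, and 5 had no estimate. The class with 100 or more held linc-6, whose SD was 1.55. The smallest SD of any tested lincRNA, 0.014, was that of linc-28, whose libraries within each group held about the same number of fragments, 0 or 1.

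**Figure D5:**
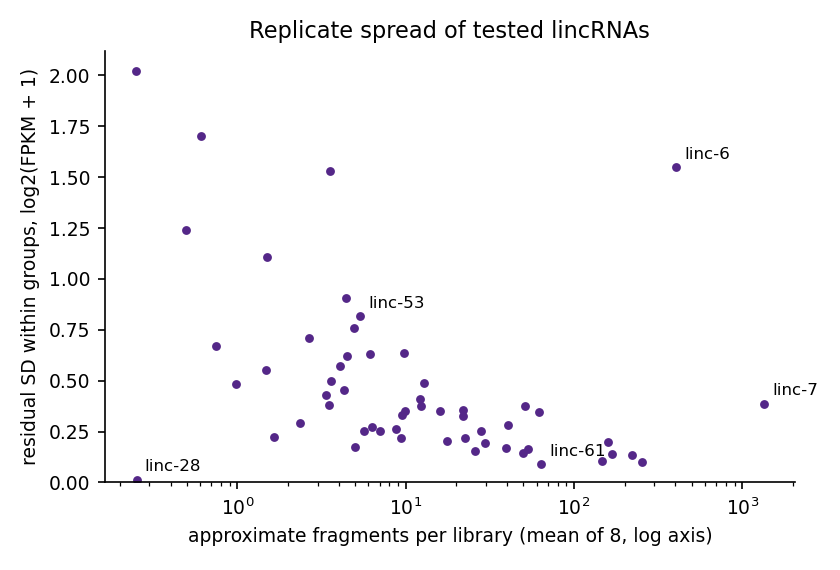
Residual SD within groups of log2(FPKM + 1) against the approximate fragments per library (mean of 8, log axis) for tested lincRNAs with a fragment estimate. The spread is lower toward the right, with a median of 0.50 under 10 fragments and 0.14 at 100 or more; linc-6 is high for its count and linc-28 lowest of all.

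Other long non-coding RNAs gave a point of comparison. The RNA tts-1, known as abundant in long-lived daf-2 mutants and bound to ribosomes, stood at 307 and 205 FPKM in daf-16 fed hns, 394 and 201 FPKM in daf-16 fed BW25113, 562 and 274 FPKM in wild type fed hns and 500 and 368 FPKM in wild type fed BW25113. The groups overlapped, with a genotype effect of -0.62 ± 0.32 (limma adjusted p = 0.488) and a food effect of -0.15 ± 0.32 (adjusted p = 0.791). The RNA rncs-1, a double-stranded inhibitor of Dicer known to respond to nutrition, stood at 18.5 and 21.5 FPKM in daf-16 fed hns, 27.1 and 21.6 FPKM in daf-16 fed BW25113, 16.3 and 19.1 FPKM in wild type fed hns and 15.3 and 17.1 FPKM in wild type fed BW25113. Its genotype effect was 0.36 ± 0.10 (limma adjusted p = 0.221) and its food effect -0.07 ± 0.10 (adjusted p = 0.673). Of 27 tested anr antisense RNAs, 0 passed by limma in any of the 7 comparisons.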

How the data were processed

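RNA of 8 whole-worm libraries was analysed from 1 deposited table of FPKM. Per the submitters' processing notes, the authors' deposited FPKM involved the tools TopHat2 2.0.11 and Cufflinks 2.2.1 and the build ce10. The sources used here name neither the annotation nor the strand handling. The members and lists were chosen with earlier results of these data known.

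FPKM were transformed to log2(FPKM + 1), and the 14564 genes that reached 1 FPKM in 2 or more libraries were fitted with limma 3.58.1 under R 4.3.3, using 1 mean per group and a mean-variance trend, 4 residual and 2.32 prior degrees of freedom. P-values were two-sided, with Benjamini-Hochberg adjustment over all genes tested, in 7 comparisons. The procedure was tested on simulated data. Lengths and neighbours came from WBcel235, another build, so no coordinates are given.

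The depth in reads is unknown. The value of about 1 fragment was the median over the 30 rows nearest in length that had 1 reference transcript and were above 0 in exactly 1 library, after a linear correction for length on the log scale, where those rows lay within 10% of the length. It was read at the length of the longest reference transcript, so fragments would be overstated where a shorter transcript gave the reads. This estimate was chosen after seeing the data.

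Named lincRNAs were linc-28, the 10 with the highest mean FPKM, those past the threshold, up to 5 in each direction whose 4 and 4 libraries did not overlap, and those at 0 in a group with a mean of at least 1 FPKM in another. The other non-coding RNA on the list, lep-5, had no row under that name in the expression table. Alternatives covered pseudocount, filter, scaling, spread, the libraries fitted, the replicate number as a block and leaving out each library.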

Additional observations from a re-analysis of the deposited data

Results flagged for a closer look

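The interaction of linc-28, its food effect in wild type minus that in daf-16, was 5.76 on the log2(FPKM + 1) scale and had a limma adjusted p of 0.000175. That value rests on 54.03 and 52.59 FPKM, about 1 fragment each, in wild type fed hns, against 0 in the other 6 libraries, so 5.76 is not a fold change. Because linc-28 passed the filter only through that group, and the near-identical values leave a residual SD of 0.014, the test does not show that the food effect differed between genotypes.

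For linc-104 the libraries lay in opposite orders by FPKM, without overlap. On hns food they were above those on BW25113 food in wild type and below them in daf-16, and daf-16 was below wild type on hns food and above it on BW25113 food. In daf-16 the foods were parted only by 0.389 FPKM on hns against 0.423 FPKM on BW25113 food, about 0.945 and 1.03 fragments. So an opposite food effect in daf-16 is not shown. Such separation was not rare among the tested lincRNAs: food in daf-16 parted 9 upward and 7 downward, while 45 overlapped. The share of all tested genes parted in this way was not counted, so nothing particular to lincRNAs is drawn from these counts. The interaction was 1.98 on the log2 scale (limma adjusted p = 0.476), short of the threshold, with at most about 5.11 fragments in any library. As given above, linc-104 entered the test only through wild type fed hns.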

How the results depend on the processing

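The count of lincRNAs past the threshold was 1 (linc-28) for food in wild type, mean food, genotype on hns food, mean genotype and the interaction, and 0 for food in daf-16 and genotype on BW25113 food. It became 2 for mean genotype with a pseudocount of 0.1 or 0.5, a filter at 5 FPKM, robust estimation (each adding linc-61) or the replicate block (adding linc-83, limma adjusted p = 0.0432). It became 2 for food in wild type with a filter at 0.2 FPKM, no trend, robust estimation or the replicate block (adding linc-104). It also became 2 for mean food with a filter at 0.2 FPKM (adding linc-47). For genotype on hns food it became 2 with only the libraries compared (adding linc-23). The linc-23 values in wild type fed hns were about 1 fragment each, against 0 in daf-16 fed hns. As given above, linc-83 and linc-104 met the filter at 1 FPKM only through the group where they were high. The replicate block changed no other count of lincRNAs; same-numbered libraries correlated between groups at 0.0219 to 0.161 in their deviations, not above 0.1 for every pair, so the numbers were not taken to pair the libraries, although some genes, such as linc-7 and tts-1, differed by number in 1 direction in all 4 groups. Leaving out each library gave 0 to 1 for food in wild type, genotype on hns food and the interaction, 0 to 2 for mean food, mean genotype and food in daf-16, and 0 for genotype on BW25113 food. The 0 came without either library of wild type fed hns, where linc-28 left the filter, and the 2 without replicate 1 of daf-16 fed BW25113, where linc-6 passed (with linc-53 for food in daf-16). Under settings chosen after seeing the data, leaving out genes listed at 0 in any library gave 0 for every comparison except mean genotype, at 2 (linc-61 and linc-83), and leaving out transcripts under 200 nt gave 0 for mean food, genotype on hns food and the interaction and kept 1 for food in wild type (linc-104) and for mean genotype (linc-61). Of the effects that passed in any setting, those of linc-6 changed sign without replicate 2 of the daf-16 libraries fed BW25113. The cause of these moves beyond what each setting leaves out was not tested.

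At 0.2 FPKM 95 lincRNAs, and at 5 FPKM 29, reached the level in 2 libraries, against 61 at 1 FPKM. The median library sum of lincRNAs was 256 FPKM without those under 300 nt. Genes called numbered 127 for food in wild type (33 to 488 over the alternatives), 59 for food in daf-16 (27 to 64), 38 and 34 for genotype on BW25113 and hns food (12 to 52 and 10 to 39), 14 for the interaction (0 to 31), 256 for mean food (75 to 796) and 121 for mean genotype (45 to 253). The highest counts for mean food, mean genotype and food in wild type came with the replicate block. Of the 61 tested lincRNAs, 31 averaged under 10 fragments. The size of difference that could be detected was not tested.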
